A study of Mus musculus with 18 samples.

Results

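Cells make cholesterol through a long chain of enzymes that begins with the mevalonate pathway, passes through squalene and lanosterol, and ends with the reworking of the sterol rings. The genes of these enzymes are switched on together by the transcription factor SREBP2, which is held in the endoplasmic reticulum by SCAP and INSIG proteins while sterols are plentiful. Ubiquitin ligases of the same membrane, among them RNF145, take part in the control of SCAP and in the turnover of proteins of the pathway. The retina makes sterols itself and also takes them up from lipoproteins, and rods use them in the membranes of their outer segments, which are renewed throughout life.

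The genes described here are *Hmgcs1*, *Idi1*, *Fdft1*, *Sqle*, *Lss*, *Cyp51*, *Insig1* and *Rnf145*, 8 of the 78239 genes in the count tables. They were chosen by their measured response to *nsHif1a* in retinas and in cells, so the levels and differences between *nsHif1a* and eGFP are given for these 8 genes as a description. Counts of the 8 past a threshold stand beside the share of all genes past it, and nothing is read from them. All 8 passed the filter on low counts in both experiments, which left 18859 genes in the retina and 15962 in the cells. Another 54 genes of sterol synthesis, control, uptake, export and storage were listed, of which all 54 could be tested in the retina and 50 in 661W cells.

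The study asked what chronic activity of the hypoxia-inducible factor HIF1 does to photoreceptors. RNA was sequenced at 3 weeks post injection (wpi) from retinas of mice that had received a subretinal AAV at postnatal day 29 to 32, with 5 libraries for AAV::*nsHif1a* and 5 for AAV::eGFP. Expression of *nsHif1a*, a Myc-tagged mouse *Hif1a* whose protein is stable in normoxia, and of the control eGFP was driven by the rod-specific mouse opsin promoter. The sample labels give the mice as C57BL/6J, whereas the methods of the study describe wild-type 129S6 mice. The virus reached part of the retina and the promoter is active in rods, while RNA came from the whole tissue. For the cell experiment, 661W cells were transfected with CMV-*nsHif1a* or CMV-eGFP plasmids and harvested after 20 h in normoxic culture, with 4 libraries per group. These cells are a photoreceptor-like line derived from a mouse retinoblastoma. Nothing in the labels says whether the 4 libraries of a group came from separate cultures, so the spread between them may be technical.

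The libraries held 12898220 to 17809585 counts, and 3 counts corresponded to 0.168 to 0.233 per 1000000 counts of the unscaled library. That floor covers counting error only and lies far below every level given for the 8 genes. Levels are given in CPM (counts per 1000000 after TMM scaling of the library). The targeted gene *Hif1a* was at 668 ± 26.1 CPM (SD, n = 5) in AAV::eGFP retinas and 687 ± 31.6 CPM (SD, n = 5) in AAV::*nsHif1a* retinas, and it rose from 157 ± 6.79 to 1561 ± 384 CPM (SD, n = 4) in the cells. The retinal groups overlapped for *Hif1a* (log2 difference 0.05, SE 0.04), so its count did not check their labels, but the summed level of 10 targets of HIF1 was 777 to 812 CPM with AAV::eGFP and 1076 to 1607 CPM with AAV::*nsHif1a*. Counts of *Xist*, the transcript of the inactive X chromosome, were high in 7 retinal libraries, namely the 5 with AAV::*nsHif1a* and control libraries 1 and 2, whereas control libraries 3, 4 and 5 had at most 3. The summed level of 10 rod markers ranged from 49482 to 54650 CPM with AAV::eGFP and from 38757 to 51571 CPM with AAV::*nsHif1a*, with all 10 log2 differences below 0 and 4 of them past the test. The share of counts on 6 γ-crystallin genes of the lens was at most 0.280% in AAV::eGFP and up to 1.82% in AAV::*nsHif1a*. In the 661W libraries the same 10 rod markers summed to 13.4 to 18.5 CPM, and only 3 of them passed the filter on low counts, so most of the defining rod genes were near 0 in these cells. The 8 cone markers summed to 2.10 to 2.65 CPM with eGFP and 2.63 to 4.71 CPM with *nsHif1a*, and 2 of them passed the filter. In each group 1 of the 8 had no counts in any library, *Opn1mw* with eGFP and *Arr3* with *nsHif1a*.

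The stretches of DNA just before the start sites of 4 of the genes are shown because SREBP2 and HIF1 act through short motifs in such regions. They were read from GRCm39 on the strand of the gene, 5′ to 3′, within the 250 bases before the canonical start in gencode M39. For 3 genes the part outside all annotated exons of the gene is given, and for *Rnf145* a site of 30 bases, since most of its window lies in the first exon of another of its transcripts. Capitals mark the letters TCACNCCAC (a form of the sterol element bound by SREBP), CCAAT (bound by NF-Y) and ACGTG or GCGTG (the core bound by HIF), on either strand, so that the reverse complement ATTGG stands for the NF-Y letters, CACGC for the second HIF core and CACGT for the first. The run CACGTG is a match to ACGTG on both strands.
Hmgcs1, chr13:120151732-120151914 (plus): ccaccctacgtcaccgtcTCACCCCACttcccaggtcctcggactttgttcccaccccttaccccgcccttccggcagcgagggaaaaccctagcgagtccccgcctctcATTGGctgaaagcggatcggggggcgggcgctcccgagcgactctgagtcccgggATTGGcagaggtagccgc
Cyp51, chr5:4154752-4154996 (minus): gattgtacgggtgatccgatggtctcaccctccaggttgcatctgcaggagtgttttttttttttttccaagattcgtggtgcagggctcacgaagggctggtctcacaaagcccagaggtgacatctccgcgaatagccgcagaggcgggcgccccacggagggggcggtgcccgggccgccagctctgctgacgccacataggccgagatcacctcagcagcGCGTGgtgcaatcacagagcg
Insig1, chr5:28276077-28276314 (plus): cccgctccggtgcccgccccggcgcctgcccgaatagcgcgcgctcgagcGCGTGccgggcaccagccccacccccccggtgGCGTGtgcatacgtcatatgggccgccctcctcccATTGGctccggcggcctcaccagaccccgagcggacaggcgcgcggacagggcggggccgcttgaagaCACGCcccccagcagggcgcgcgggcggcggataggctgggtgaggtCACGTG
Rnf145, chr11:44409541-44409570 (plus): agtgagcgcgaaCACGTGtcagaatggctg

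In windows of 250 bases, TCACNCCAC was found in 1 of the 8 genes (*Hmgcs1*) and in 1.12% of the 21723 protein-coding genes. CCAAT was found in 6 of the 8 windows (not in *Cyp51* or *Rnf145*) and in 36.5% of all. ACGTG was found in *Idi1*, *Insig1* and *Rnf145* and in 17% of all, and GCGTG in 7 of the 8 (not in *Hmgcs1*) and in 31.2% of all. The run CACGTG stood in *Insig1* and in *Rnf145*. A match describes the letters in the window and was not tested for binding.

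In retinas with AAV::*nsHif1a*, *Rnf145* was higher and the 7 sterol genes were lower on average. *Rnf145* lay apart in every library on the high side, *Insig1* and *Lss* lay apart on the low side, and the groups overlapped for the other 5. Not overlapping in either direction was 5.94% of all genes tested. At an adjusted *p* under 0.05 in limma, 1 of the 8 genes was higher, against 3.31% of all genes, and 3 were lower, against 2.47%, counts that belong to a contrast used to choose the genes. None of the 8 passed the study's added threshold of 0.5 on the absolute log2 fold change. In bulk retina, fewer cells of a type and less RNA per cell cannot be told apart.

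**Figure D1:**
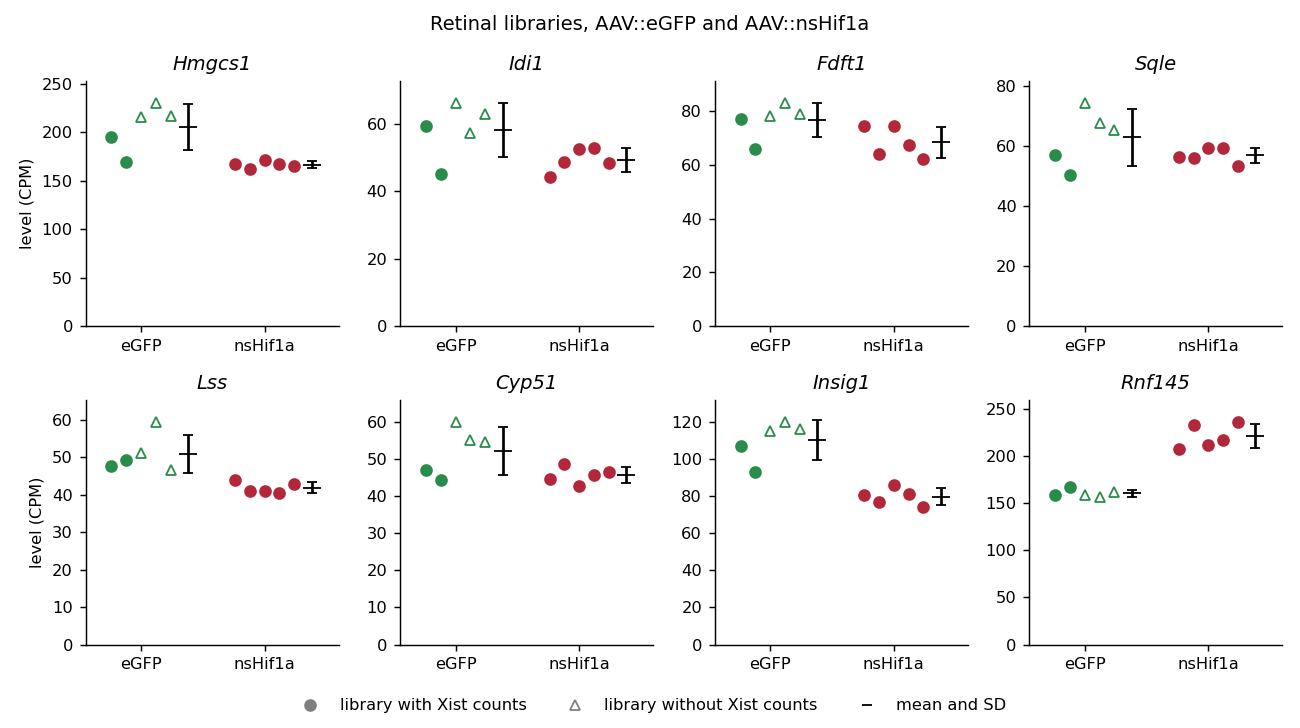
Level in CPM (vertical axis, from 0) of each of the 8 genes in every retinal library, AAV::eGFP in green and AAV::nsHif1a in red, with filled circles for libraries with Xist counts and open triangles for those without, and the mean and SD (n = 5) in black. All 5 nsHif1a libraries lie above the control libraries for Rnf145 and below them for Insig1 and Lss.

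*Rnf145* encodes the ubiquitin ligase named above and is a known target of the sterol-sensing receptor LXR. Its levels in the AAV::eGFP libraries 1 to 5 were 159, 167, 159, 157 and 162 CPM, and in the AAV::*nsHif1a* libraries they were 208, 233, 212, 217 and 237 CPM. The lowest *nsHif1a* library was thus well above the highest control, and the control values were close together, with an SD of 2.36% of their mean. The log2 difference was 0.46 (SE 0.04), a mean ratio of 1.38.

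*Insig1* encodes the membrane protein that keeps SCAP in the endoplasmic reticulum, and it is itself a target of SREBP2. Its levels were 107, 92.8, 115, 120 and 116 CPM with AAV::eGFP and 80.2, 76.7, 85.8, 80.9 and 73.8 CPM with AAV::*nsHif1a*. Every *nsHif1a* library was below every control, with a log2 difference of -0.47 (SE 0.07). *Lss*, lanosterol synthase, closes the rings of the sterol. Its levels were 47.7, 49.4, 51.3, 59.5 and 46.5 CPM with AAV::eGFP and 43.9, 41.1, 41.1, 40.5 and 42.8 CPM with AAV::*nsHif1a*, apart by a small gap, with a log2 difference of -0.28 (SE 0.07).

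*Hmgcs1*, the synthase that makes HMG-CoA at the start of the mevalonate pathway, had the highest level of the enzymes, per kilobase of exon too. Its levels were 195, 169, 215, 230 and 217 CPM in the control libraries and 167, 162, 171, 167 and 166 CPM with *nsHif1a*. The *nsHif1a* libraries were tightly grouped and reached just above the lowest control, which is library 2, and the log2 difference was -0.31 (SE 0.07). *Idi1*, which isomerises the activated isoprene units, was at 58.1 ± 8.03 CPM (SD, n = 5) in controls and 49.2 ± 3.42 CPM (SD, n = 5) with *nsHif1a*. *Fdft1*, squalene synthase, was at 76.6 ± 6.30 and 68.6 ± 5.77 CPM (SD, n = 5). *Sqle*, the squalene epoxidase that uses oxygen at a step limiting the pathway, was at 62.8 ± 9.40 and 56.8 ± 2.50 CPM (SD, n = 5). *Cyp51*, the oxygen-using demethylase of lanosterol, was at 52.4 ± 6.45 and 45.7 ± 2.19 CPM (SD, n = 5). The groups overlapped for these 4 enzymes, with log2 differences between -0.24 for *Idi1* and -0.13 for *Sqle*. The median over all 8 genes was -0.21, against -0.0021 over all genes tested.

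Within the control group, the libraries with *Xist* counts had lower means of the 7 sterol genes than those without. For 5 of the 7 both control libraries with *Xist* counts were below all 3 without. The share of all genes divided in this way was not computed. The largest difference on the log2 scale was that of *Sqle* (-0.37), with 56.8 and 50.1 CPM against 74.1, 67.5 and 65.2 CPM. For *Rnf145* the 2 kinds of control library overlapped, with means of 163 and 159 CPM. Against the 2 control libraries with *Xist* counts alone, the log2 difference of *Rnf145* was 0.44, that of *Insig1* -0.32 and that of *Lss* -0.22. *Hmgcs1* then came to -0.12, *Fdft1* to -0.06, *Idi1* to -0.05, *Cyp51* to 0.00 and *Sqle* to 0.10, so that the median of the 7 sterol genes was -0.06. The *nsHif1a* libraries lay below both control libraries with *Xist* counts for *Insig1* and *Lss* and overlapped them for the other 5 sterol genes. How many of all genes lay apart in that comparison was not counted. Since no *nsHif1a* library lacked *Xist* counts, the comparison cannot be made among such libraries. With the summed rod marker level as a covariate, *Rnf145* was at 0.34, *Insig1* at -0.33, *Lss* at -0.24, *Hmgcs1* at -0.22, *Idi1* at -0.18 and *Cyp51* at -0.16. *Fdft1* turned in sign to 0.03 in that fit, and *Sqle* came to 0.00083. The part of rod RNA and of *Xist* class in these differences was not tested beyond these values.

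Reads of 2 of the enzymes can be split with pseudogenes. *Idi1* had 17% of its 50-base words in common with *Idi1-ps1*, which was at 14.1 ± 1.42 CPM in controls and 10.7 ± 0.998 CPM with *nsHif1a* (SD, n = 5), so that the sum of both genes was also lower with *nsHif1a*. *Fdft1* had 7.3% in common with *Gm6781*, which was at 3.95 ± 0.159 and 3.06 ± 0.451 CPM (SD, n = 5). *Hmgcs1* shared 6.02% of its words with other genes, *Sqle* 1.91%, *Insig1* 1.15%, and *Rnf145* none.

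In 661W cells the 7 sterol genes had higher means with CMV-*nsHif1a* and *Rnf145* had a lower one, and most of the difference lay in replicates 1 and 2. None of the 8 genes passed an adjusted *p* under 0.05 in limma. An unadjusted *p* under 0.05 was found for 5 of the 8 and for 3304 of all 15962 genes tested. Of the 8, edgeR's quasi-likelihood test called none and DESeq2 called 1 (*Lss*), and nothing is read from these counts, since this contrast also chose the genes. Of all genes tested, 2.06% were called higher and 0.426% lower. The groups did not overlap for *Lss* only, against 13.6% of all genes.

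**Figure D2:**
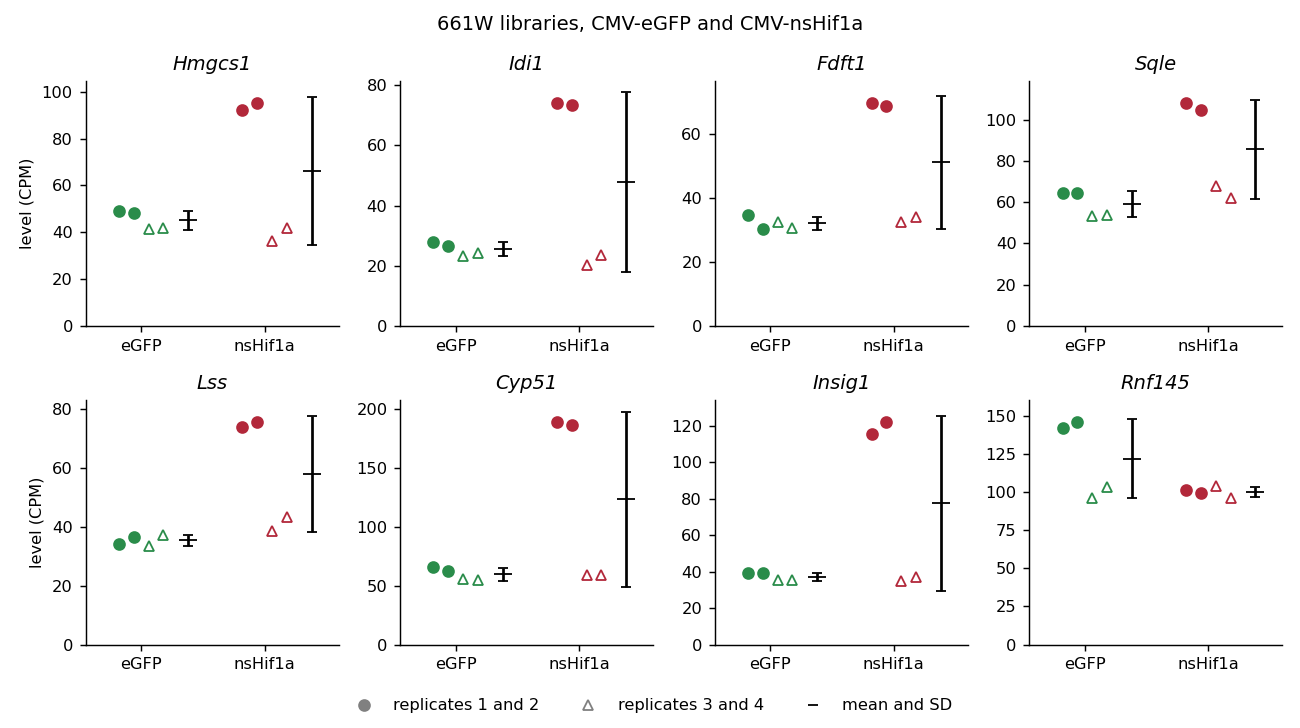
Level in CPM (vertical axis, from 0) of each of the 8 genes in every 661W library, CMV-eGFP in green and CMV-nsHif1a in red, with filled circles for replicates 1 and 2, open triangles for replicates 3 and 4, and the mean and SD (n = 4) in black. For the 7 sterol genes nsHif1a replicates 1 and 2 stand above all other libraries, and for Rnf145 eGFP replicates 1 and 2 do.

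*Cyp51* was at 66.2, 62.7, 55.3 and 54.8 CPM in eGFP replicates 1 to 4 and at 189, 186, 58.7 and 58.9 CPM in *nsHif1a* replicates 1 to 4. *Insig1* was at 39.1, 39.1, 35.6 and 35.3 CPM with eGFP and at 116, 122, 34.7 and 37.2 CPM with *nsHif1a*. In replicates 1 and 2 the log2 ratios to the controls were 1.54 and 1.61, and in replicates 3 and 4 the groups were within a few CPM of each other. *Idi1* was at 27.98, 26.7, 23.2 and 24.4 CPM with eGFP and at 74.0, 73.6, 20.4 and 23.5 CPM with *nsHif1a*. *Hmgcs1* was at 48.9, 48.4, 41.3 and 42.0 CPM with eGFP and at 92.1, 95.1, 36.5 and 41.7 CPM with *nsHif1a*. For both mevalonate enzymes the *nsHif1a* replicates 3 and 4 were at or slightly below their controls. *Fdft1* was at 30.3 to 34.8 CPM in the 4 controls and at 69.7, 68.9, 32.5 and 34.0 CPM with *nsHif1a*.

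*Sqle*, *Lss* and *Cyp51* had both *nsHif1a* libraries above both controls in replicates 3 and 4 too, *Cyp51* by a log2 ratio of 0.09. The share of all genes placed in this way was not computed. In limma on replicates 3 and 4 alone, *Sqle* was called, as were 4.11% of all genes called higher, and *Lss* and *Cyp51* were not. That fit measures against the spread within a pair, which may be technical. *Sqle* was at 64.5, 64.4, 53.3 and 53.9 CPM with eGFP and at 108, 105, 67.8 and 62.1 CPM with *nsHif1a*. *Lss* was at 34.2, 36.7, 33.5 and 37.2 CPM with eGFP and at 74.0, 75.7, 38.5 and 43.3 CPM with *nsHif1a*. On the log2 scale of the means, replicates 1 and 2 differed by 0.72 for *Sqle* and 1.08 for *Lss*, and replicates 3 and 4 by 0.28 and 0.21.

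*Rnf145* was at 142, 146, 95.8 and 103 CPM with eGFP and at 101, 99.4, 104 and 96.0 CPM with *nsHif1a*. All *nsHif1a* libraries and eGFP replicates 3 and 4 thus had about the same level, and eGFP replicates 1 and 2 stood above them. The log2 ratio of the means was -0.52 in replicates 1 and 2 and 0.01 in replicates 3 and 4. Over all 8 libraries the log2 difference was -0.25 (SE 0.15), and for the sterol genes it ranged from 0.46 (SE 0.28) for *Hmgcs1* to 0.87 (SE 0.36) for *Cyp51*. The median of the 8 genes was 0.64, against -0.0013 over all genes.

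**Figure D3:**
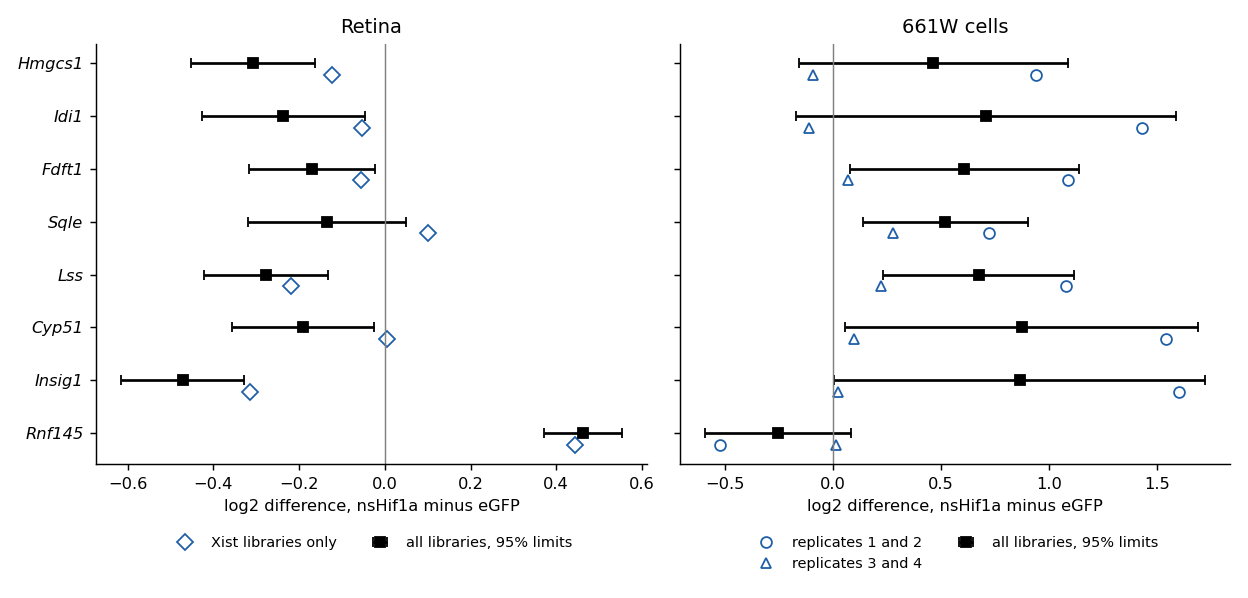
Log2 difference between nsHif1a and eGFP (horizontal axis) of the 8 genes in retina (left) and 661W cells (right), with black squares and bars for the limma estimate over all libraries and its 95% limits, open diamonds for retinal libraries with Xist counts alone, open circles for cell replicates 1 and 2 alone and open triangles for replicates 3 and 4 alone. In the cells the circles lie far from 0 and the triangles near it.

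The division of the cell libraries was not limited to sterol genes. At the median gene, the squared difference between replicates 1 and 2, or 3 and 4, of the same group was 1.47 to 1.62 times that of counting noise. For libraries paired across these sets it was 3.81 to 9.17 times, and for pairs within a retinal group 2.16 to 7.23 times. Each library was counted as labelled. Fitted alone, replicates 1 and 2 gave 18.5% of all genes as higher with *nsHif1a*, 7 of the 8 genes among them, and replicates 3 and 4 gave 4.11%, with *Sqle* the only one of the 8. These calls rest on the spread within a pair and may not measure variation between cultures. *Hif1a* itself rose in both pairs, by a log2 ratio of 3.03 in replicates 1 and 2 and of 3.54 in replicates 3 and 4. The labels name no batch that would tell the pairs apart, and what sets them apart was not tested.

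For each gene the difference in the retina can be set beside that in the cells. The retinal log2 difference minus that of the cells was 0.74 (SE 0.15) for *Rnf145* and between -0.56 (SE 0.19) for *Sqle* and -1.11 (SE 0.34) for *Insig1* for the sterol genes. Single cell libraries moved these values by much: with each library left out in turn, *Insig1* ranged from -2.01 without *nsHif1a* replicate 4 to -0.54 without *nsHif1a* replicate 1, *Idi1* from -1.63 without *nsHif1a* replicate 3 to -0.14 without *nsHif1a* replicate 1, and *Sqle* from -0.93 without *nsHif1a* replicate 4 to -0.32 without *nsHif1a* replicate 1. *Rnf145* ranged from 0.54 without eGFP replicate 2 to 0.91 without eGFP replicate 3. In limma's interaction term over all 18 libraries, *Rnf145* and *Lss* were past an adjusted *p* of 0.05, as were 2.33% of all genes. When the cell replicates were blocked by number, all 8 were, as were 3.36% of all genes. The deviations of cell replicates 1 and 2 were closest to each other's number rather than their own, and with the counts added within replicates 1 and 2 and within 3 and 4, limma called 0 of 18117 genes in the cells. These contrasts chose the genes, so the counts are a description. The retinal and cell experiments also differed in promoter, vector and duration, and these and the tissue cannot be told apart here.

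The 54 other listed genes were tested in the same fits. In the retina, 7 were lower and 1 was higher with *nsHif1a* at an adjusted *p* under 0.05 in limma, and 38 of the 54 differences were below 0, with a median of -0.08. Of all genes tested, 2.47% were called lower and 3.31% higher. Over all genes, 9544 of 18859 differences were below 0, with a median of -0.0021. Among the 16 sterol synthesis enzymes that are not members of the 8, 13 were below 0 with a median of -0.19, but only 2, among them *Hsd17b7*, were called lower, and *Pmvk* was called higher. *Hsd17b7*, a reductase of the late sterol steps, was at 11.9 to 13.2 CPM in controls and 7.20 to 9.49 CPM with *nsHif1a*, with no overlap, and its log2 difference was -0.65 (SE 0.08, adjusted *p* = 0.0013, limma). *Pmvk*, phosphomevalonate kinase, was at 29.5 to 35.5 CPM in controls and 39.1 to 49.96 CPM with *nsHif1a*, a rise of 0.36 (SE 0.07, adjusted *p* = 0.0095, limma), opposite in direction to the other mevalonate enzymes.

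*Stard4*, a sterol carrier, fell by 0.30 (SE 0.06, adjusted *p* = 0.013, limma), with 48.1, 47.4, 54.6, 56.2 and 54.3 CPM in controls and 39.9, 43.9, 41.9, 40.5 and 45.9 CPM with *nsHif1a*. *Scd1*, *Fasn* and *Abcg1* were also called lower, at -0.29, -0.20 and -0.15. *Scd1* and *Fasn* make fatty acids under the related factor SREBP1, and *Abcg1* exports sterols. Among the genes that control SREBP none of 6 was called by limma, with 1 at an unadjusted *p* under 0.05. In this group *Srebf1* was at -0.13, *Srebf2* at -0.09, *Scap* at -0.02 and *Insig2* at 0.11. None of the 6 other genes of sterol-linked ubiquitination was called by limma, with 1 at an unadjusted *p* under 0.05. Among them *Rnf139* was at -0.14. Of the 6 genes of the LXR and efflux list, 4 were above 0 and 2 below, with *Abcg1* the only call and *Abca1* at 0.11 (adjusted *p* = 0.53 in limma).

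Of the 7 listed genes called lower, 1 (*Hsd17b7*) was still lower when only the libraries with *Xist* counts were fitted, as were 0.502% of all genes, and *Pmvk* was no longer called. The log2 difference of *Pmvk* was then 0.37 and that of *Abcg1* -0.18, no smaller than with all libraries, while *Stard4*, *Scd1* and *Fasn* came to -0.17, -0.18 and -0.13. With the rod marker level as a covariate none of the 54 listed genes was called lower by limma. Of all 18859 genes tested, 2 were called lower in that fit, against 466 without the covariate. Of the 54 listed genes, 6 were lower at an unadjusted *p* under 0.05. The log2 differences of *Hsd17b7* and *Stard4* were larger in that fit, at -0.80 and -0.36, and those of *Scd1*, *Abcg1* and *Fasn* were -0.24, -0.14 and -0.12, so the lost calls do not show that the differences were gone.

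**Figure D4:**
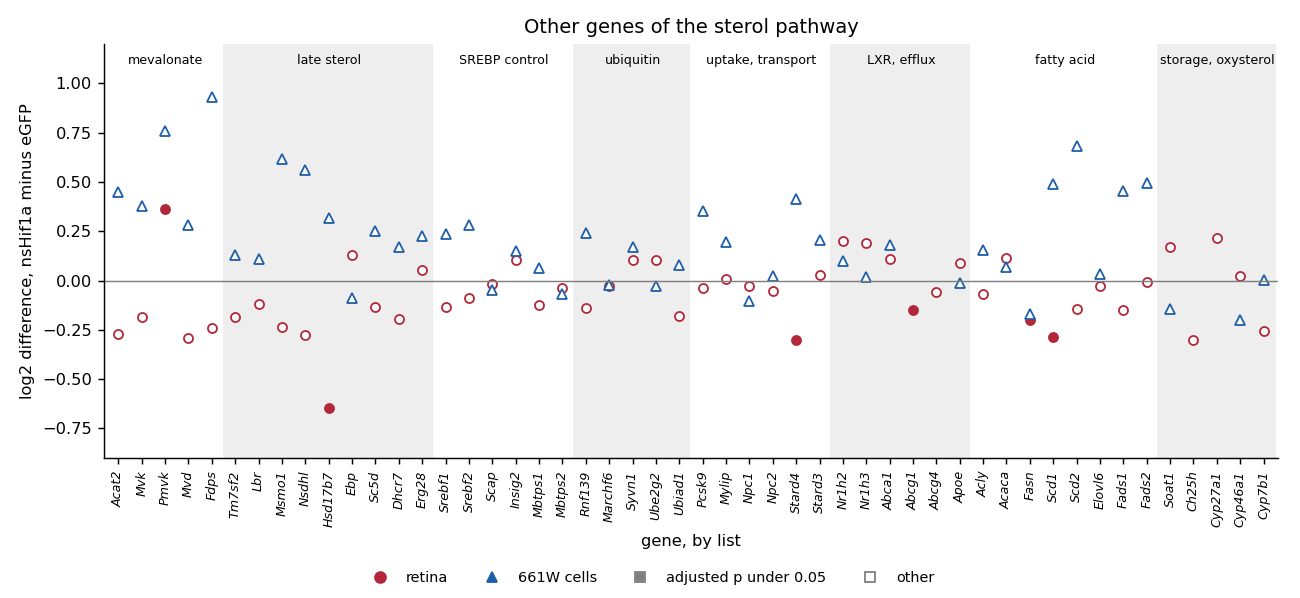
Log2 difference between nsHif1a and eGFP (vertical axis) of 50 of the other genes of the sterol lists (horizontal axis, grouped by list), red circles for the retina and blue triangles for 661W cells, filled where the adjusted p in limma was under 0.05. Of the genes plotted, 5 were called lower and 1 higher in the retina, and none in the cells.

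In the cells none of the 50 tested genes of the lists was called in either direction by limma, with 9 higher and 1 lower at an unadjusted *p* under 0.05. Of all 15962 genes tested, 3304 had such an unadjusted *p*, in either direction. By edgeR's quasi-likelihood test none was called, and by DESeq2 none was higher and 1 (*Fasn*) was lower. Blocked by replicate number none was called either, against 1.02% of all genes called higher in that fit. Of the 50, 40 had a log2 difference above 0, with a median of 0.17, as did 7936 of all 15962 genes, with a median of -0.0013. The *nsHif1a* libraries of replicates 1 and 2 were both above those of replicates 3 and 4 for 41 of the 54 genes. The share of all genes in that order was not computed, so nothing is read from the 41. Fitted alone, replicates 1 and 2 had 30 of 52 genes higher, with *Srebf1*, *Srebf2* and *Rnf139* among them, at a median of 0.35. Of all genes, 18.5% were called higher in that fit. Replicates 3 and 4 had 2 of 50 higher, *Scd2* and *Soat1*, at a median of 0.01, against 4.11% of all genes. *Fasn*, lower in the retina, was at -0.17 in the cells (adjusted *p* = 0.10 in limma).

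Between retina and cells, none of the 54 differences of effect was called by limma's interaction term, with 14 at an unadjusted *p* under 0.05, 1 called by edgeR's quasi-likelihood test and 5 by DESeq2. Blocked by the number of the cell replicates, 9 were called, among them *Msmo1*, *Hsd17b7*, *Sc5d*, *Srebf1*, *Stard4*, *Scd1* and *Scd2*. Of all genes, 3.36% were called in that fit.

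The control libraries of the retina and the cells can also be set side by side. They enter the contrasts that chose the genes, so the values of the 8 are again a description. In control retina against control cells *Hmgcs1*, *Insig1*, *Fdft1*, *Idi1*, *Lss* and *Rnf145* were higher in the retina at an adjusted *p* under 0.05 in limma, but 92% of all genes differed in this comparison. The median over all genes was itself 0.26 on the log2 scale, and between 0.15 and 0.33 with other size factors. *Hmgcs1* was 4.93-fold higher in the retina (log2 difference 2.30, SE 0.09) and *Insig1* was 3.21-fold higher (1.68, SE 0.08). *Fdft1* and *Idi1* followed with 1.38 and 1.30, and *Lss* with 0.63. *Rnf145* was at 0.53 (SE 0.12), 0.26 above the median of all genes, with eGFP replicates 1 and 2 of the cells the nearest to the retina, and its difference was 0.32 without cell replicate 3 and 0.72 without cell replicate 2. *Sqle* was at 0.20 (95% limits -0.02 and 0.42) and *Cyp51* at -0.08 (95% limits -0.27 and 0.12). With only the retinal libraries that had *Xist* counts, *Sqle* was at -0.02 and *Cyp51* at -0.26.

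**Figure D5:**
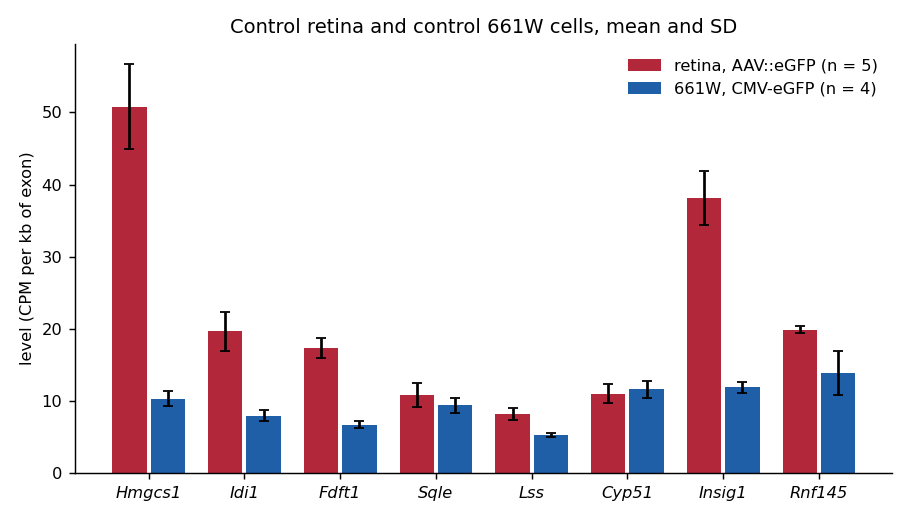
Mean level and SD of the 8 genes in CPM per kilobase of exon (vertical axis) in control retina (red, n = 5) and control 661W cells (blue, n = 4). Hmgcs1 and Insig1 stand highest in the retina, and in the cells all 8 lie between 5.26 and 13.9.

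Per kilobase of exon, the order of the control retina began with *Hmgcs1* at 50.8 ± 5.86 and *Insig1* at 38.2 ± 3.73 CPM per kb (SD, n = 5). *Rnf145* at 19.9 ± 0.454, *Idi1* at 19.6 ± 2.73 and *Fdft1* at 17.3 ± 1.44 CPM per kb came next, and *Idi1* did not differ from either of its neighbours beyond their spread. *Cyp51* at 11.0 ± 1.36 and *Sqle* at 10.8 ± 1.63 CPM per kb did not differ beyond their spread, and *Lss* was lowest with 8.21 ± 0.831. In the control cells the range was narrower, from 5.26 ± 0.228 CPM per kb for *Lss* to 13.9 ± 3.04 for *Rnf145* (SD, n = 4), with *Insig1* at 11.9 and *Cyp51* at 11.6 beside each other. Of the other listed genes, 29 of 54 were higher and 19 lower in the retina, 26 of the 54 lying above the median of all genes. *Srebf1*, *Scap*, *Srebf2* and *Insig2* were higher in the retina by 0.64, 0.61, 0.57 and 0.42 on the log2 scale, while *Rnf139* was at -0.08 and was not called.

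The 7 sterol genes varied together between libraries of the same group. Over the 10 retinal libraries, deviations from the group means of log2 CPM had a median Pearson's r of 0.67 among the 21 pairs, 20 of them above 0, the highest being 0.92 for *Hmgcs1* and *Insig1*. *Lss* ranged from -0.16 with *Idi1* to 0.45 with *Hmgcs1*, and *Fdft1* and *Cyp51* were at 0.29. *Rnf145* had a median r of -0.42 with the 7, from -0.87 with *Fdft1* to 0.02 with *Cyp51*. The *Xist* class divides the control libraries in these values. In the 8 cell libraries the median r among the 7 was 0.98, which describes the contrast of replicates 1 and 2 with 3 and 4, and that of *Rnf145* with the 7 was 0.11. These values describe the libraries, which share depth and handling.

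Among 11964 retinal genes with a mean log2 CPM of at least 3, the genes that were no member and followed the mean of the 7 most closely were *Atrnl1* (r = 0.97), *Synj1* (0.95), *Gabrb2* (0.94) and *Elk1* (0.93). Those nearest to *Rnf145* were *Rock2*, *Klhl29*, *Igsf11*, *Tfb2m* and *Plekha2*, with r from 0.95 to 0.94. In the cells the nearest to the 7 were *Jund*, *F830016B08Rik*, *Enpp4*, *Tlr2* and *Col3a1*, from 0.999 to 0.998, and the nearest to *Rnf145* were *Ewsr1*, *Cdc25b*, *Topbp1*, *Hmgb1-ps1* and *Eif4e*, from 0.99 to 0.98. The 8 genes themselves were left out of these lists. Among the 7 sterol genes alone, the nearest to *Rnf145* in the retina was *Cyp51* (r = 0.02, rank 5475 of 11964). In the cells it was *Sqle* (r = 0.37, rank 2837 of 10848).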

How the data were processed

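Poly(A) RNA of 10 retinal and 8 cell libraries was measured. The authors made stranded libraries, aligned paired-end reads to GRCm39 with Rsubread and deposited whole-number counts per gene from featureCounts in antisense mode with the gencode M36 basic annotation, without filtering or normalization. Strand-specific counting keeps genes on opposite strands apart, whereas reads shared with near-identical copies can be split or lost. Gene places and exon lengths were taken from gencode M39, which held 78168 of the 78239 IDs. Samples were grouped from their titles.

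Genes of low count were first dropped from the deposited tables by filterByExpr at a minimum count of 10. Libraries were scaled by TMM in edgeR 4.0.16, and voomWithQualityWeights values were fitted in limma 3.58.1 under R 4.3.3, 1 experiment at a time, with the Benjamini-Hochberg (BH) adjustment over all genes tested. The study's methods name these functions in other versions and add an absolute log2 fold change above 0.5, which was an alternative here. The difference between retina and cells was the interaction term over all 18 libraries. Log2 CPM was computed with a prior count of 2, and levels per kb divide CPM by the exon length. A word is a run of 50 bases of a transcript. Procedures were run on simulated counts of independent libraries with 2-fold changes, of which 62.9% (interaction term) to 79.4% (cells) were recovered. Smaller changes and the pairs of cell libraries were not simulated.

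The 8 genes and the lists were chosen with earlier results of these data known. The genes named are the 8, *Hif1a*, *Srebf1*, *Srebf2*, *Scap*, *Insig2*, *Rnf139*, *Abca1*, the listed genes called in either experiment and the 5 genes most like *Rnf145* or the mean of the other 7. Others, such as the pseudogenes, markers and genes called in an alternative, were named after their values were seen. Some genes of the lists enter the counts but are not reported here by name. Same-numbered cell libraries of the 2 groups deviated together (r between 0.227 and 0.269 across genes), although only replicates 3 and 4 were closest to their own number. Retinal libraries of the same number did not deviate together. The main fits held no pairing, and a block by the replicate number from the titles was an alternative. The alternatives comprised DESeq2 1.42.0, edgeR's quasi-likelihood test, voom without sample weights, other size factors and filters, the replicate block, *Xist* class, γ-crystallin level, the replicate pairs of the cells and each library left out. The rod marker covariate was added after seeing the data.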

Additional observations from a re-analysis of the deposited data

Results flagged for a closer look

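Among the 8 genes, the effects of *nsHif1a* in retina and cells differed by limma's interaction term for *Rnf145*, with a difference of 0.74 on the log2 scale, and for *Lss*, with -0.84, both among the values that chose the genes.

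Single libraries stood apart from the rest of their group by Dixon's criterion at 95% in 4 of 80 groups of values tested, where chance gives about 1 in 20. None of these was a value of the 8 genes. *Pmvk* was at 49.96 CPM in AAV::*nsHif1a* library 5, against 39.1 to 42.0 CPM in the others. *Abca1* was at 57.0 CPM in AAV::eGFP library 2. *Scd1* was at 32.9 CPM in AAV::eGFP library 5, against 25.9 to 27.5 CPM. *Abcg1* was at 0.15 CPM in eGFP replicate 4 of the cells and at 0 in the other 3. That value lies below the floor of 3 counts (0.223 in that library), and *Abcg1* did not pass the filter on low counts in the cells.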

How the results depend on the processing

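The 7 listed genes called lower in the retina became 4 with edgeR's quasi-likelihood test, 4 with voom without sample weights, 2 with the γ-crystallin level as a covariate, 1 with *Xist* class as a covariate, 1 in libraries with *Xist* counts alone, 0 with the rod marker level as a covariate and 2 with the study's threshold on the fold change. Leaving out each library in turn gave 1 to 12, the lowest without AAV::eGFP library 5 and the highest without AAV::eGFP library 2. It was 2 without AAV::eGFP library 4 and 2 without AAV::*nsHif1a* library 2. The 1 gene called higher became 0 with *Xist* class as a covariate, in libraries with *Xist* counts alone, with the rod marker level and with the study's threshold, and leaving out each library gave 1 to 2. In the cells, where 0 were called, the lower calls were 1 with DESeq2, 1 with the replicate pair as a covariate, 3 in replicates 1 and 2 and 1 in replicates 3 and 4, and the higher calls were 8 with the replicate pair as a covariate, 30 in replicates 1 and 2 and 2 in replicates 3 and 4. Leaving out each cell library gave 0 to 3 lower and 0 to 31 higher, with 28 and 31 higher without *nsHif1a* replicate 3 or 4. For the difference between retina and cells, 0 became 1 with edgeR, 5 with DESeq2, 1 with a minimum count of 30 and 0 to 29 when each library was left out, with 28 and 29 without *nsHif1a* replicate 3 or 4 of the cells. Other size factors and the filter on low counts left the other counts within 1.5 times, and the counts of control retina against control cells (6 of the 8, 48 of the 54) stayed between 6 and 7 and between 47 and 51. Lower calls over all genes in the retina changed as well, from 466 in the main fit to 307 with edgeR's quasi-likelihood test. They were 291 with voom without sample weights and 199 with the γ-crystallin level. With *Xist* class they were 175, in libraries with *Xist* counts alone 100, and with the rod marker level 2. The cause of these changes was not tested.

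With the replicate block, 3 listed genes were lower in the retina, where same-numbered libraries did not deviate together (r between -0.148 and 0.138). In the cells the replicate block left both counts at 0, and for the difference between retina and cells it gave 9.

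When replicates 1 and 2 were summed, and likewise 3 and 4, 2 samples per group remained and no gene was called.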
